A study of Mus musculus with 2 samples.

Results

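The transcripts of 48 genes of fatty acid oxidation and lipid storage were described in the second polar body (PB2) and in the zygote, out of 11262 genes in the table of RNA-seq values analysed here. They were taken by symbol alone, as the acyl-CoA synthetases (Acsl), carnitine palmitoyltransferases (Cpt), acyl-CoA dehydrogenases (Acad), the hydratase, isomerase and dehydrogenase families of beta-oxidation (Ech, Eci, Hadh), thiolases (Acaa), acyl-CoA thioesterases (Acot), fatty acid-binding proteins (Fabp), elongases and desaturases (Elovl, Fads, Scd), perilipins (Plin) and lipases (Lipe, Pnpla). GENCODE M21 holds 83 protein-coding genes with such symbols, and the other 35, among them Cpt1a, Acadvl, Scd1, Scd2 and Plin1, were not analysed here. Both libraries came from untreated C57BL/6 embryos (C57BL/6N in the study's methods) at the late 1-cell stage, collected from the oviduct and cultured in KSOM. The zona pellucida was removed in acid Tyrode's solution, and PB2 was then split from the embryo in trypsin by pipetting. One library was made from pooled PB2s and 1 from pooled zygotes, by amplification of full-length cDNA of polyadenylated RNA. With 1 library per condition the spread between samples is unknown, no test was run, and each difference below describes these libraries and not the conditions.

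Fatty acids enter oxidation after an acyl-CoA synthetase has joined them to coenzyme A. The carnitine shuttle carries them into mitochondria, where dehydrogenases, hydratases, further dehydrogenases and thiolases shorten them in cycles that feed the respiratory chain. Fatty acids that are not oxidized are stored as triacylglycerol in lipid droplets, which perilipins coat and from which lipases release them. Oocytes and early embryos carry such droplets and use beta-oxidation as a source of energy.

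The values are TPM, a library's transcripts scaled to a fixed total after division by gene length, deposited to 1 decimal. They are proportions of a library, so they do not give the amount of a transcript in a PB2 or in a zygote. Higher in PB2 thus means a larger share of the PB2 library. Depth is not recorded in TPM, and the only error that can be given is that of rounding. Genes were compared by the log2 ratio, log2((PB2 TPM + 1)/(zygote TPM + 1)), among genes with at least 1 TPM in either library. The 14 oocyte markers listed, Zp3, Gdf9 and Bmp15 among them, were all above 1 TPM in both libraries. Of 20 cumulus and granulosa cell markers 6 were in the table, with a summed level of 89.5 TPM in PB2 and 88.0 TPM in zygotes, most of it Cyp19a1, and Cyp11a1 listed at 0 in the zygote. Of 10 sperm markers 3 were in the table, with sums of 23.7 and 21.9 TPM, nearly all of it Prm2. Of 10 adipocyte and oviduct markers 3 were in the table, with sums of 15.1 and 11.1 TPM, and Adig was listed at 0 in PB2. The part of other cell types in the differences below was not tested.

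The 48 genes took up nearly the same share of both libraries, but the share was made up differently. Their values added up to 1261.5 TPM in PB2 versus 1251.5 TPM in the zygote, 0.14% and 0.135% of the table. At a threshold of 1 TPM, PB2 expressed 42 of the 48 genes, the zygote expressed 41, and 37 were shared. Among all 11262 genes analysed, PB2 expressed 10260 at that threshold, the zygote expressed 9934, and 9549 were shared. Of the 46 genes that reached 1 TPM in either library, 7 were at least 2-fold higher in PB2, or 15.2%, against 18.9% of all 10645 genes compared. In the other direction 5 passed 2-fold towards the zygote, or 10.9%, against 8.09% of all genes compared. Neither share lay far from that of all genes. Elovl2 and Pnpla7 stayed under 1 TPM in both libraries and were not compared. The median log2 ratio of the 46 genes was -0.06, and that of all genes compared was 0.21. Centred on that median of 0.21, 6 of the 46 genes passed 2-fold towards PB2 and 7 towards the zygote. Of all 10645 genes compared, 1387 and 1291 then passed it.

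Within the group the order of levels was much alike in PB2 and the zygote. Across the 46 genes Spearman's rho between the TPM values of the libraries was 0.90, against 0.91 over all genes compared, and genes are not independent replicates. The 10 most abundant members held 72.6% of the group's TPM in PB2 against 75.8% in the zygote, and 8 genes were among these 10 in both. Fabp5 led in the zygote with 173.0 TPM, followed by Acot9, Acsl3 and Acadm. Elovl5 led in PB2 with 193.2 TPM, followed by Fabp5, Acot3 and Acsl3. Levels of 100 TPM or more were reached by 4 members in the zygote and 2 in PB2.

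**Figure D1:**
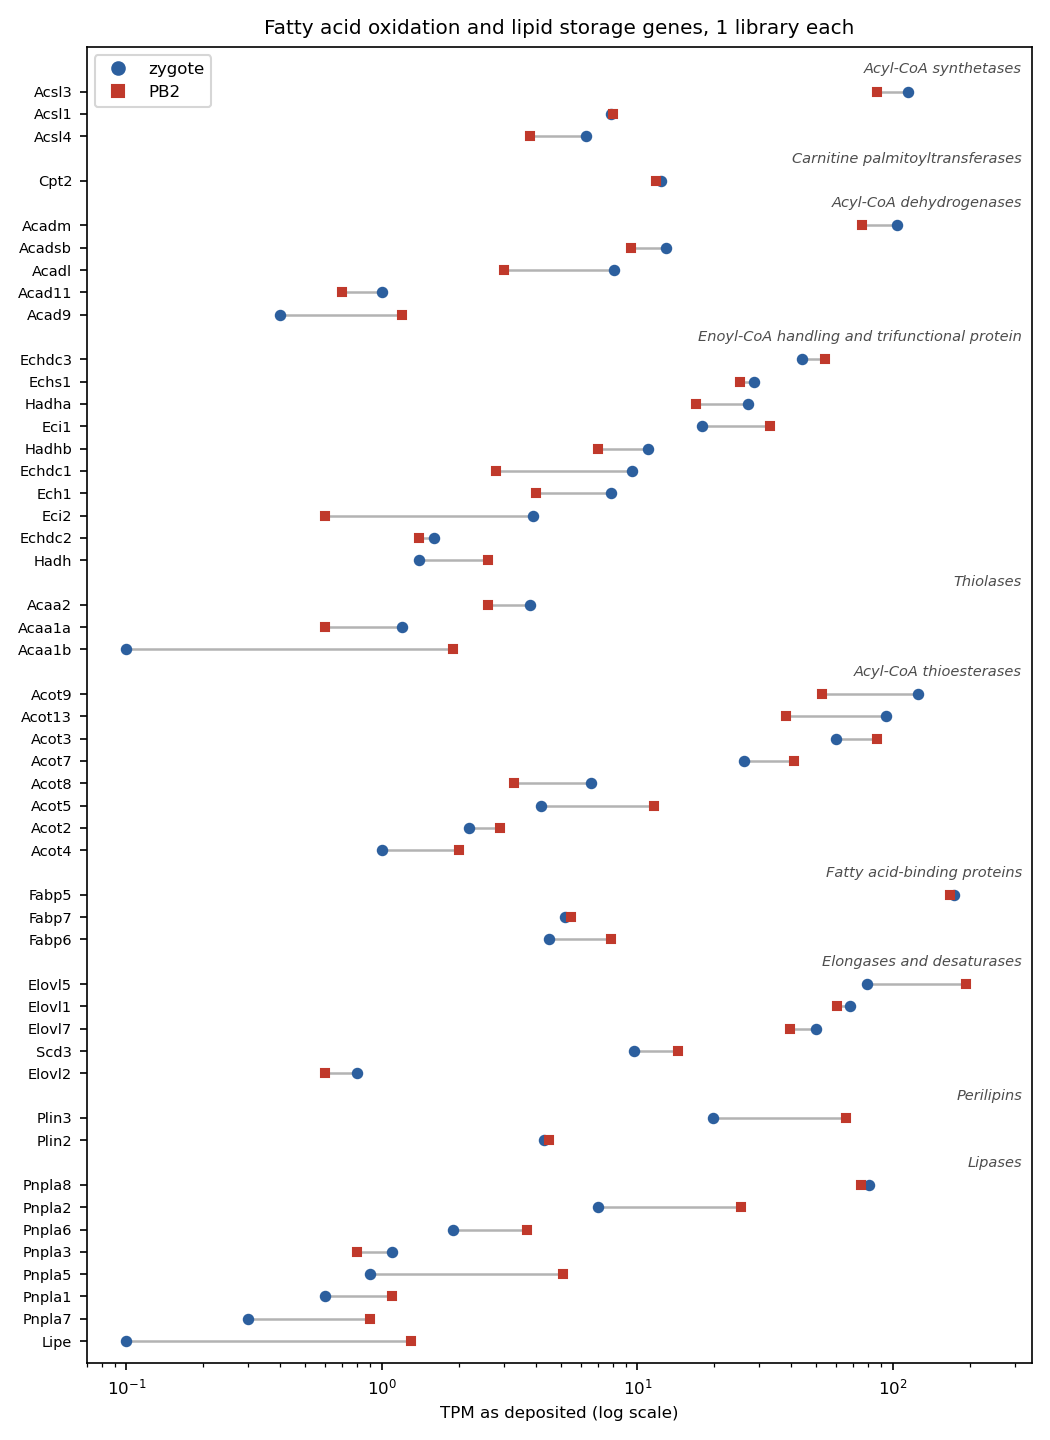
TPM as deposited (log axis) of each of the 48 genes in the zygote (circles) and PB2 (squares), 1 library each, grouped by role, with a grey line joining the values of a gene. Among the synthetases, dehydrogenases and hydratases most squares lie to the left of the circles, and Plin3, Pnpla2, Pnpla5 and Elovl5 lie to the right.

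Most genes of the 5 roles from the synthetases to the thiolases were lower in PB2. In this grouping, made after the values were seen, 16 of 22 genes had a lower TPM in PB2 and 6 a higher one, while of all 10645 genes compared 4262 were lower and 6298 higher. Most of the 22 act in mitochondria, but Acaa1a and Acaa1b are peroxisomal and Echdc1 is a decarboxylase outside the cycle. Acsl3 acts at the endoplasmic reticulum and on droplets. The median log2 ratio of these 22 genes was -0.41 and their summed level was 352.3 TPM in PB2 against 425.1 TPM in the zygote. Acsl3 alone made up 24.5% of that sum in PB2 and 27.0% in the zygote. At the 2-fold threshold 3 of them, or 13.6%, were higher in the zygote against 8.09% of all genes, and 1, or 4.55%, in PB2 against 18.9%. With the trend of the log2 ratio on transcript GC content removed, the median was -0.51, against 0.01 over all genes. On that scale 0 of the 22 passed 2-fold towards PB2 and 6 towards the zygote, against 9.08% and 11.0% of all genes.

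Acsl3, which joins long-chain fatty acids to coenzyme A at the endoplasmic reticulum and on droplets, was the main synthetase. It had 86.4 TPM in PB2 and 114.6 TPM in zygotes, a log2 ratio of -0.40, and made up 88.0% and 89.0% of the summed level of the synthetases. Acsl4, which prefers arachidonic acid, had 3.8 TPM in PB2 versus 6.3 TPM in the zygote. Acsl1 had 8.0 and 7.9 TPM, so that no synthetase passed 2-fold. Cpt2, the carnitine palmitoyltransferase of the inner mitochondrial membrane, was nearly level, with 11.8 TPM in PB2 against 12.4 TPM in the zygote.

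Of the 5 acyl-CoA dehydrogenases, which take the first oxidizing step, 4 were lower in PB2. Acadm, the medium-chain enzyme, made up 84.1% of their summed level in PB2, where it had 75.4 TPM, and 82.2% in the zygote, where it had 103.4 TPM. Its log2 ratio was -0.45, short of 2-fold. Acadl, the long-chain enzyme, had 3.0 TPM in PB2 and 8.1 TPM in zygotes, 2.7 times as much, and rounding allows between 2.64 and 2.76 times. Acadsb, which handles short branched chains, had 9.4 and 12.9 TPM. Acad11 had 0.7 TPM in PB2 versus 1.0 TPM in the zygote. Acad9, which also serves in complex I assembly, was the exception with 1.2 TPM in PB2 against 0.4 TPM in the zygote, too low for the log2 ratio of 0.65 to pass 2-fold.

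Hadha and Hadhb encode the alpha and beta subunits of the mitochondrial trifunctional protein, which carries out the last 3 steps of the cycle on long chains. Hadha had 16.9 TPM in PB2 and 27.2 TPM in zygotes, a log2 ratio of -0.66. Hadhb had 7.0 TPM in PB2 versus 11.0 TPM in the zygote, a log2 ratio of -0.59. Both subunits were lower in PB2 by a like amount as deposited, but with the GC trend removed the log2 ratio was -1.03 for Hadha and -0.55 for Hadhb. Hadha stood at 2.41 times Hadhb in PB2 and 2.47 times in the zygote. The level of Hadhb is uncertain, since 62.4% of the 50-base stretches of its transcript also occur in other annotated genes, nearly all of them in Gm13910. The genes lie head to head on chromosome 5 of GRCm38, Hadha on the minus strand from 30118304 to 30155162 and Hadhb on the plus strand from 30155248 to 30184593, with 85 bases between their starts. These positions are those of GENCODE. The promoter windows of RefSeq, which run from 250 bases before a start to 50 after it, use other starts and overlap by 228 bases. The window of Hadhb, chr5:30155003-30155302 on the plus strand, is shown because the overlap lies in it. Capitals in this and the later windows mark matches to 5 motifs on either strand, the GC box with the letters GGGCGG, the element spelled CCAAT, the start-site element spelled TATAAA, the sterol element core TCACNCCAC and the direct repeat read by PPAR and RXR.
Hadhb: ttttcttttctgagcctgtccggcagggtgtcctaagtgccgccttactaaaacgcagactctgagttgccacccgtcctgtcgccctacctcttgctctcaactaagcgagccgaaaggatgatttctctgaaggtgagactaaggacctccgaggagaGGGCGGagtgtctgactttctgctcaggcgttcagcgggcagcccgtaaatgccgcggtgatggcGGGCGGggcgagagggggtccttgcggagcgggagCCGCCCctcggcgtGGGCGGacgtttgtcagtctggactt
The Hadhb window holds 4 GC boxes and none of the other motifs. Windows were found for 44 of the 48 genes, and the first one listed for each was searched. A GC box was present in 31 of these, or 70.5%, against 35.9% of 27025 windows of all genes, and CCAAT in 21, or 47.7%, against 37.9%. The 27025 windows include genes outside the 11262 analysed here, so the sets set side by side are unlike. TATAAA was in 3 of the members' windows, or 6.82%, against 14.2% of all windows. The sterol element core was in 1, that of Fabp6, and in 1.22% of all windows, and the direct repeat was in none of the members' windows and in 0.0444% of all.

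The remaining genes of enoyl-CoA handling went both ways. Echs1, the short-chain hydratase, had 25.2 TPM in PB2 against 28.5 TPM in the zygote. Hadh, the next dehydrogenase of the cycle for shorter chains, had 2.6 and 1.4 TPM. Among the isomerases that prepare unsaturated chains, Eci1 had 33.0 TPM in PB2 and 17.9 TPM in zygotes, a log2 ratio of 0.85. Eci2, which works in peroxisomes and mitochondria, stood the other way with 0.6 and 3.9 TPM, 6.5 times as much in the zygote, where rounding allows between 5.92 and 7.18 times. Ech1, which shifts the double bonds of dienoyl chains, had 4.0 TPM in PB2 versus 7.9 TPM in the zygote, a log2 ratio of -0.83, short of 2-fold. The isomerases thus did not share a direction.

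Echdc1, an ethylmalonyl-CoA decarboxylase that clears a side product of fatty acid synthesis, had 2.8 TPM in PB2 against 9.5 TPM in the zygote, a log2 ratio of -1.47. Its exons on chromosome 10 are overlapped over 75.8% of their length by Rnf146 on the opposite strand. Rnf146 had 24.7 TPM in PB2 and 63.1 TPM in zygotes, a log2 ratio of -1.32. The sources used here do not say whether counting used strand, so it is unknown whether reads of the overlapped part were told apart. Echdc3 was the most abundant gene of this role, with 54.0 TPM in PB2 versus 44.1 TPM in the zygote. Echdc2 had 1.4 and 1.6 TPM.

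The thiolases with Acaa symbols, which release acetyl-CoA, were the least abundant role, with a summed level of 5.1 TPM in both libraries. The trifunctional protein was grouped apart from them, and Acat1 and Scp2, which also encode thiolases, are in lists given below. Acaa2, the mitochondrial enzyme, had 2.6 TPM in PB2 against 3.8 TPM in the zygote. The peroxisomal enzymes stood in opposite directions, Acaa1a with 0.6 TPM in PB2 and 1.2 TPM in zygotes, and Acaa1b with 1.9 and 0.1 TPM. The log2 ratio of Acaa1b was 1.40, past 2-fold, and rounding allows between 12.3 and 39.0 times as much in PB2. These paralogs share 34.0% of the 50-base stretches of the Acaa1a transcript, so their separate levels are uncertain. Their sum was 2.5 TPM in PB2 versus 1.3 TPM in the zygote.

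The acyl-CoA thioesterases, which hydrolyse acyl-CoA to free fatty acid and coenzyme A, divided into a set higher in PB2 and a set higher in the zygote. Acot9 and Acot13, both mitochondrial, had 52.7 and 38.1 TPM in PB2 and 125.4 and 93.7 TPM in the zygote. Acot9 was 2.38 times and Acot13 2.46 times as high in the zygote. With the trend on transcript length removed the log2 ratio of Acot13 was -0.83, no longer past 2-fold. Of the 50-base stretches of Acot9, 20.2% also occur in Acot10, so its level is uncertain. Acot8, the peroxisomal enzyme, had 3.3 TPM in PB2 against 6.6 TPM in the zygote, a log2 ratio of -0.82. Acot7, a cytosolic enzyme for long chains, stood the other way with 40.9 TPM in PB2 and 26.1 TPM in zygotes, but with the GC trend removed its log2 ratio was -0.13.

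The type I thioesterases Acot2, Acot4, Acot3 and Acot5 lie close together on the plus strand of chromosome 12, from 83987861 to 84076020, a stretch of 88.2 kb. All 4 had a higher TPM in PB2, though with the GC trend removed the log2 ratio of Acot2 was -0.27. Acot3, by far the most abundant of them, had 86.8 TPM in PB2 versus 60.0 TPM in the zygote, a log2 ratio of 0.53. Acot5 had 11.6 and 4.2 TPM, a log2 ratio of 1.28, and was the only one of the 4 past 2-fold. Acot2 had 2.9 TPM in PB2 against 2.2 TPM in the zygote, and Acot4 had 2.0 and 1.0 TPM. The sum over this cluster was 103.3 TPM in PB2 and 67.4 TPM in zygotes, and that over the 4 thioesterases elsewhere was 135.0 and 251.8 TPM. The transcripts of the cluster resemble each other, and between 14.4% (Acot4) and 27.7% (Acot2) of their 50-base stretches also occur in other genes, Acot1 and Acot6 among them, so their separate levels are uncertain. The windows of Acot3 (chr12:84051894-84052193) and Acot5 (chr12:84069074-84069373), both on the plus strand, are shown because these neighbours carry most of the cluster's level. RefSeq lists 2 windows for each, of which the first is printed.
Acot3: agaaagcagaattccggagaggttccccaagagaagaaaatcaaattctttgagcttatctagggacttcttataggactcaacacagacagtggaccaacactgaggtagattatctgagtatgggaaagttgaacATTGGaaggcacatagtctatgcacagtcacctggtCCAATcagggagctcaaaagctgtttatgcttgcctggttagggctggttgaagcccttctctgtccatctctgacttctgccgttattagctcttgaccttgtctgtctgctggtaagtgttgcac
Acot5: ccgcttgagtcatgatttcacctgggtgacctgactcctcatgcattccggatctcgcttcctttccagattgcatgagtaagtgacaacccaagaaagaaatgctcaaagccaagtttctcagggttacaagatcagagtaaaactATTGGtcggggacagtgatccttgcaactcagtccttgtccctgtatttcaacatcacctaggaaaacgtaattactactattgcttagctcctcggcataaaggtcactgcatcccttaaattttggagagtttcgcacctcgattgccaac
Neither window holds a GC box, and CCAAT occurs 2 times in that of Acot3 and 1 time in that of Acot5. Their GC content was 45.7% and 45.3%.

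Fabp5, a carrier of fatty acids in the cytosol, was nearly level, with 166.6 TPM in PB2 versus 173.0 TPM in the zygote. It made up 92.6% and 94.7% of the summed level of the fatty acid-binding proteins, and 21.1% of its 50-base stretches also occur in 5 other annotated genes, Fabp5l2 among them. Fabp6, the ileal bile acid carrier, had 7.9 and 4.5 TPM. Fabp7, the brain form, had 5.5 TPM in PB2 against 5.2 TPM in the zygote.

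Elovl5, which lengthens polyunsaturated fatty acids, had the largest difference in TPM of the 48 genes, with 193.2 TPM in PB2 and 79.4 TPM in zygotes. This is 2.43 times as much in PB2, a log2 ratio of 1.27 that was 0.96 with the length trend removed, and it ranked 731 of the table in PB2 and 1569 in the zygote. The other elongases were lower in PB2, none past 2-fold. Elovl1 had 60.2 TPM in PB2 versus 67.9 TPM in the zygote, Elovl7 had 39.6 and 50.2 TPM, and Elovl2 had 0.6 and 0.8 TPM. Scd3, a stearoyl-CoA desaturase and the only desaturase analysed, had 14.4 TPM in PB2 against 9.7 TPM in the zygote. The summed level of the role was 308.0 TPM in PB2 and 208.0 TPM in zygotes, and Elovl5 made up 62.7% and 38.2% of it. Elovl5 lies on the plus strand of chromosome 9 from 77917364 to 77984519, and its window (chr9:77917115-77917414) is shown because it was the most abundant member in PB2.
Elovl5: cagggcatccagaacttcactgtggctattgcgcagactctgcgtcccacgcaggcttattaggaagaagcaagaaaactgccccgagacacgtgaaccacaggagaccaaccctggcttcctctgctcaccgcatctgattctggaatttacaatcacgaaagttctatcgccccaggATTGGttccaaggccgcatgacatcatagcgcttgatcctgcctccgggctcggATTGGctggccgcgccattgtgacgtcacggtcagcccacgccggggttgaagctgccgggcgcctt
It holds CCAAT 2 times, both on the opposite strand, and none of the other motifs.

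The droplet coat protein Plin3 and lipases of droplets were higher in PB2. Of the 9 perilipins and lipases compared, grouped after their values were seen, 7 had a higher TPM in PB2 and 4 were past 2-fold, with none past 2-fold towards the zygote. Over all genes compared 6298 of 10645 were higher in PB2, and 18.9% and 8.09% passed 2-fold towards PB2 and the zygote. The median log2 ratio of the 9 genes was 0.70, against 0.21 over all genes. Summed over all 10 perilipins and lipases, Pnpla7 included, the level was 182.9 TPM in PB2 versus 116.5 TPM in the zygote. With the trend on GC content removed the median was 0.27, against 0.01 over all genes, and 5 of the 9 were above 0. Of the 4 genes past 2-fold, only Plin3 was then still past it, and Pnpla3 was past it towards the zygote at -1.11. On that scale 9.08% of all genes passed 2-fold towards PB2 and 11.0% towards the zygote.

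Plin3, a perilipin that moves between the cytosol and nascent droplets, had 65.4 TPM in PB2 against 19.8 TPM in the zygote. It was 3.3 times as high in PB2, with rounding allowing between 3.29 and 3.31 times, a log2 ratio of 1.67. Plin2, the perilipin that is bound to droplets throughout, had 4.5 TPM in PB2 and 4.3 TPM in zygotes, a log2 ratio of 0.05, and of -0.37 with the GC trend removed. Plin3 made up 93.6% of the summed level of both in PB2 and 82.2% in the zygote.

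Pnpla2 encodes adipose triglyceride lipase, which starts the breakdown of stored triacylglycerol. It had 25.4 TPM in PB2 versus 7.0 TPM in the zygote, the largest log2 ratio of the 46 genes at 1.72. Rounding allows between 3.6 and 3.66 times as much in PB2. Lipe, the hormone-sensitive lipase that acts next on diacylglycerol, had 1.3 TPM in PB2 against 0.1 TPM in the zygote, and rounding allows any ratio between 8.33 and 27.0. Pnpla5, a further lipase of droplets, had 5.1 TPM in PB2 and 0.9 TPM in zygotes, a log2 ratio of 1.68. The windows of Plin3 (chr17:56290462-56290761, minus strand) and Pnpla2 (chr7:141454938-141455237, plus strand) are shown because these were the droplet genes of at least 10 TPM that were past 2-fold.
Plin3: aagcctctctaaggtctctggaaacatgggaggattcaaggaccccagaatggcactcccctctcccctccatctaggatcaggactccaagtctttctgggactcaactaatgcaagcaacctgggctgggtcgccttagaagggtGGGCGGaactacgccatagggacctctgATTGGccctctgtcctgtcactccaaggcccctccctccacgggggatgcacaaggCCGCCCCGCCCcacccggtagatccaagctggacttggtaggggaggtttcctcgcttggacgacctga
Pnpla2: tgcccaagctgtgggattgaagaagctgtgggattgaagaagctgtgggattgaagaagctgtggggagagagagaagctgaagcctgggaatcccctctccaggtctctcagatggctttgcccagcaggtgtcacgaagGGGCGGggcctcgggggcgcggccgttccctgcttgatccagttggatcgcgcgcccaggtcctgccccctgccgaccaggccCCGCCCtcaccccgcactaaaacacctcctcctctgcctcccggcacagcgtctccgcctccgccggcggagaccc
The Plin3 window holds 3 GC boxes, a pair of them overlapping, and CCAAT 1 time. That of Pnpla2 holds 2 GC boxes and has a GC content of 65.3%.

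The other patatin-like lipases were closer between the libraries. Pnpla8, a phospholipase of mitochondria and peroxisomes, was the most abundant lipase, with 74.7 TPM in PB2 versus 80.5 TPM in the zygote. Pnpla6, a lysophospholipase also named neuropathy target esterase, had 3.7 and 1.9 TPM. Pnpla3 had 0.8 TPM in PB2 against 1.1 TPM in the zygote, Pnpla1 had 1.1 and 0.6 TPM, and Pnpla7 had 0.9 and 0.3 TPM. At these levels 1 step of the deposited decimal is a large part of the value.

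**Figure D2:**
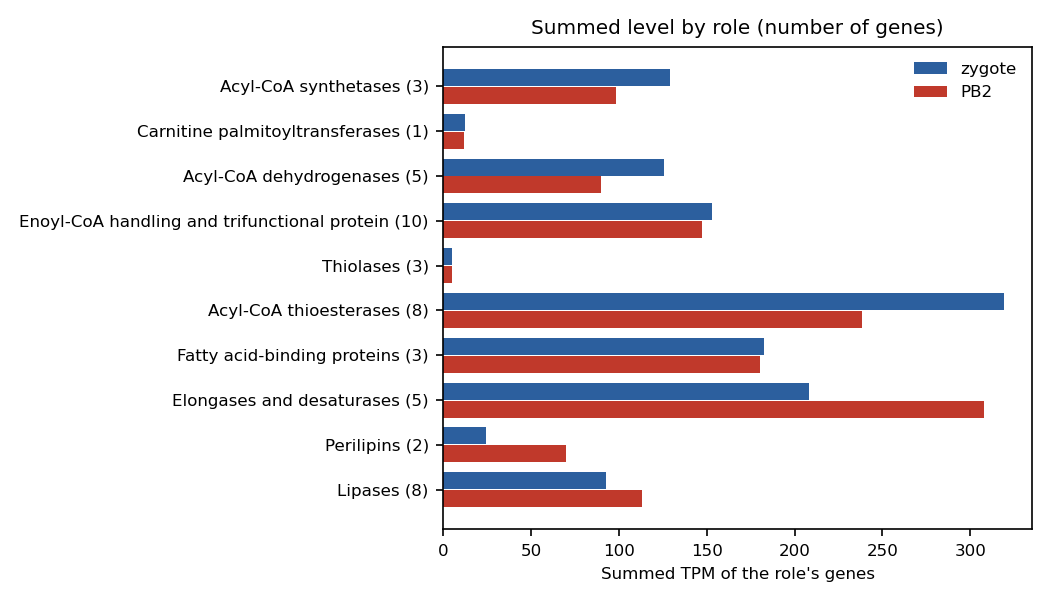
Summed TPM of the genes of each role in the zygote and PB2, 1 library each, with the number of genes in parentheses. The sums are lower in PB2 for the synthetases, dehydrogenases and thioesterases (238.3 against 319.2 TPM) and higher for the elongases and desaturases, perilipins and lipases.

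The direction of the difference moved with transcript GC content. Over the 46 members Spearman's rho between the log2 ratio and the GC content of the longest protein-coding transcript was 0.34 and Pearson's r was 0.37, against 0.44 for both over the 10606 genes compared that have such a transcript. Median GC content was 55.6% for the 7 genes past 2-fold in PB2, from 44.8% for Elovl5 to 58.9% for Acaa1b. The 5 past 2-fold in the zygote had a median of 45.3%, from 41.2% for Echdc1 to 51.7% for Eci2. The 16 members lowest in GC had a median log2 ratio of -0.37 and the 15 highest one of 0.63. With the trend over all genes removed, which also centres the ratios, 2 members passed 2-fold towards PB2, Plin3 at 1.32 and Elovl5 at 1.34. On that scale 10 passed it towards the zygote, namely Eci2, Echdc1, Acot13, Acot9 and Acadl as before, and Acot8, Ech1, Acaa1a, Pnpla3 and Hadha. Of all 10606 genes with a transcript 963, or 9.08%, then passed 2-fold towards PB2 and 1162, or 11.0%, towards the zygote. The log2 ratio of Pnpla2 was then 0.91, that of Pnpla5 0.97, that of Acot5 0.47, that of Acaa1b 0.49 and that of Lipe 0.34. The part of GC content in these differences was not tested. Transcript length moved less with the ratio, with a rho of 0.08 over the members.

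**Figure D3:**
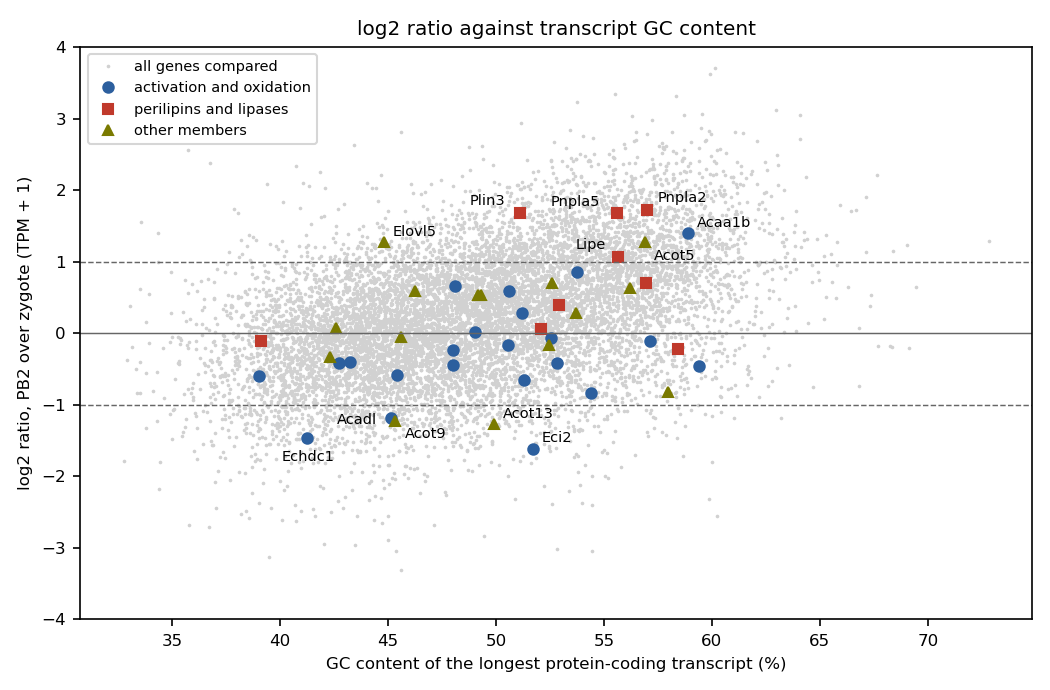
The log2 ratio of PB2 over zygote against the GC content (%) of the longest protein-coding transcript, for all genes compared (grey) and the members by role, with the 12 members past 2-fold (dashed lines) named. The members past 2-fold in PB2 lie mostly above 50% GC, Elovl5 being the exception at 44.8%.

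Genes of the same metabolism outside these families were followed through 7 lists with 126 genes, and 82 could be compared. Past 2-fold towards PB2 were 20 of them, or 24.4%, and towards the zygote 5, or 6.1%, against 18.9% and 8.09% of all genes. The median log2 ratio was 0.40, against 0.21 for all genes. With the GC trend removed 10 and 7 of the 82 passed 2-fold, against 9.08% and 11.0% of all genes. The median was then 0.07, against 0.01 for all genes. The shuttle and electron transfer list had a median of -0.18 over 11 genes, with none past 2-fold in PB2. Etfa, a subunit of the flavoprotein that takes electrons from the acyl-CoA dehydrogenases, had 151.0 TPM in PB2 and 205.0 TPM in zygotes. Acat1, the mitochondrial acetoacetyl-CoA thiolase, had 200.4 and 138.9 TPM. Mcee, the epimerase that handles propionyl-derived methylmalonyl-CoA, had 20.4 TPM in PB2 versus 45.6 TPM in the zygote, the only gene of the list past 2-fold.

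The peroxisomal list had a median log2 ratio of 0.69 over 16 genes, with 7 (43.8%) past 2-fold in PB2 and 1 (6.25%) in the zygote, against 18.9% and 8.09% of all genes. With the GC trend removed the median was 0.20. On that scale 4 of the 16 were past 2-fold in PB2 and 0 in the zygote, against 9.08% and 11.0% of all genes. The 7 included the import factors Pex13 with 225.8 TPM in PB2 against 86.9 TPM in the zygote, Pex5 with 7.5 and 2.2 TPM and Pex14 with 5.9 and 1.6 TPM. Amacr, a racemase for branched chains, had 23.3 TPM in PB2 and 4.0 TPM in zygotes, and Hsd17b4, the bifunctional enzyme, had 35.1 and 14.3 TPM. Scp2, which holds a peroxisomal thiolase, had 14.1 TPM in PB2 versus 30.1 TPM in the zygote. Pecr, a peroxisomal enoyl-CoA reductase, was the most abundant gene of all these lists, with 1269.6 and 1783.2 TPM.

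Synthesis of triacylglycerol had a median log2 ratio of 0.51 over 10 genes, 3 of them (30.0%) past 2-fold in PB2, against 18.9% of all genes, and none in the zygote. With the GC trend removed the median was 0.37 and only Dgat2 of the 3 was past 2-fold, at 1.37. Dgat2, which makes triacylglycerol, had 12.2 TPM in PB2 against 2.0 TPM in the zygote. Agpat1, which makes phosphatidic acid, had 20.1 and 6.0 TPM, and Lpin2, the most abundant gene of the list, had 117.1 and 72.3 TPM. None of the 10 genes of droplet assembly and lipolysis control was past 2-fold, with Bscl2, which encodes seipin, at 188.0 TPM in PB2 and 151.2 TPM in zygotes. Abhd5, the activator of the lipase encoded by Pnpla2, is in that list, and its log2 ratio was -0.69.

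Fatty acid synthesis and chain completion had 2 of 13 genes (15.4%) past 2-fold each way, against 18.9% of all genes towards PB2 and 8.09% towards the zygote. With the GC trend removed 1 of the 13 was past it in PB2 and 4 in the zygote, against 9.08% and 11.0% of all genes. Mlycd, which removes malonyl-CoA, had 6.7 TPM in PB2 versus 0.7 TPM in the zygote, and Mcat, which charges the mitochondrial carrier protein, had 18.3 and 5.5 TPM. Me1, a cytosolic source of NADPH, had 291.0 TPM in PB2 against 635.3 TPM in the zygote. Hacd3, a dehydratase of the elongation cycle that Elovl5 also serves, had 2.2 and 10.6 TPM. Of 4 genes of uptake, Cd36, a fatty acid translocase, had 22.2 TPM in PB2 and 88.8 TPM in zygotes, Scarb1 had 9.9 and 4.2 TPM, and Lpl, the lipoprotein lipase, had 46.7 and 51.9 TPM.

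The regulators had the highest median of the 7 lists, 0.85 over 18 genes, with 7 (38.9%) past 2-fold in PB2 and none in the zygote, against 18.9% and 8.09% of all genes. Srebf1 and Srebf2 encode the sterol-regulated activators of lipid synthesis, and Scap encodes their escort. Srebf1 had 58.4 TPM in PB2 versus 13.4 TPM in the zygote, Srebf2 had 8.8 and 0.6 TPM, and Scap had 54.4 and 17.0 TPM. Insig1, which holds Scap back, was the most abundant regulator with 305.5 and 163.2 TPM. Mlxipl, which encodes the carbohydrate-responsive factor ChREBP, had 73.2 TPM in PB2 against 19.8 TPM in the zygote, Nr1h2 (LXR beta) had 25.6 and 5.9 TPM, and Prkab1, a subunit of the AMP-activated kinase, had 180.4 and 48.8 TPM. Ppard, a fatty acid receptor, was at the threshold with 7.4 and 3.2 TPM. The median GC content of this list was 52.1%, and with the GC trend removed its median log2 ratio was 0.38. On that scale 4 of the 18 were past 2-fold in PB2, against 9.08% of all genes.

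**Figure D4:**
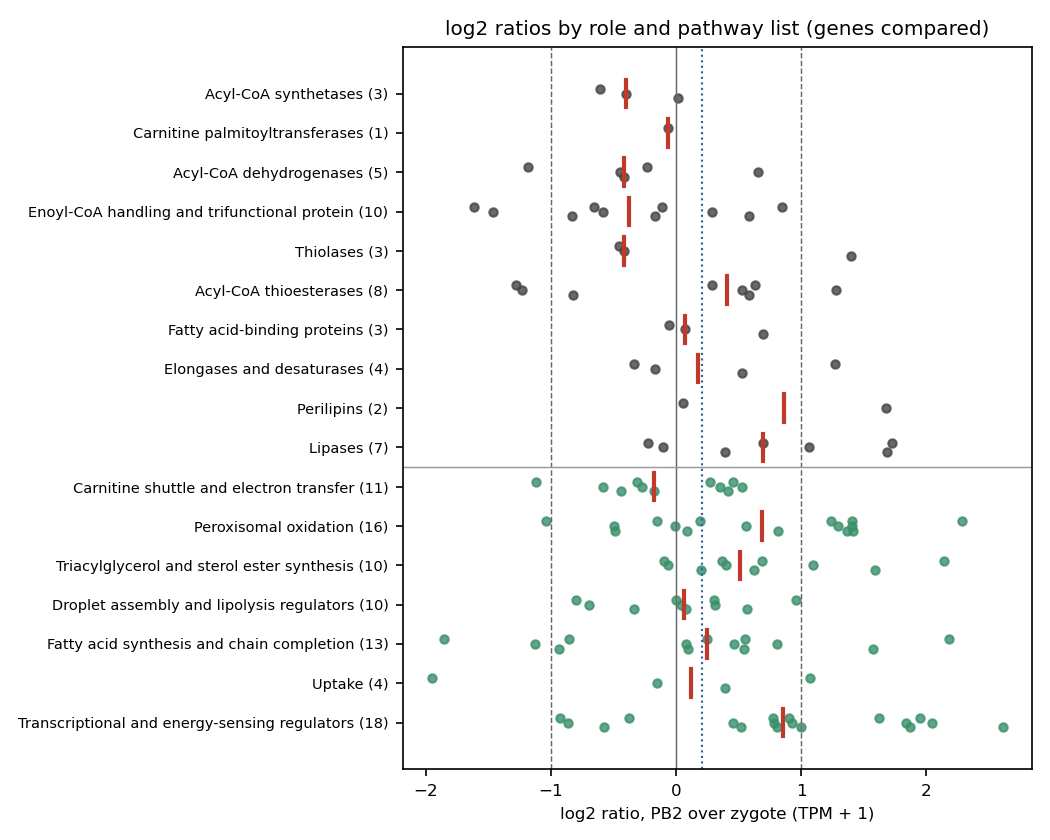
The log2 ratio of PB2 over zygote of each gene compared, by role of the members (dark points, upper part) and by list of other pathway genes (green points, lower part), with the number of genes in parentheses, the median of each as a red bar and that of all genes compared (0.21) as a dotted line. The synthetases, dehydrogenases, enoyl-CoA genes and thiolases have medians below 0, and the lipases, peroxisomal genes and regulators lie above the dotted line.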

How the data were processed

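The authors aligned the reads with HISAT2 2.0.4 and counted them per gene with HTSeq 0.6.1p1, and the deposited values are TPM to 1 decimal. How TPM was computed is not given in the sources used here. The submitters' processing notes list GRCm38 and the rabbit assembly OryCun2.0, and the paper names the latter, but the identifiers are those of mouse genes. Each value column was matched to its sample by name, PB2 or the one-cell embryo. The genes of the table add up to 89.8% of a full library in PB2 and 92.7% in the zygote, so some genes were not analysed here. Depth is unknown, and no counting interval can be given.

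The 48 members were matched by symbol. The log2 ratio used a pseudocount of 1 and a minimum of 1 TPM in either library, and 2-fold took the place of a test. Positions, transcript lengths and GC contents came from GENCODE M21 (GRCm38) by identifier, and promoter windows from RefSeq (GRCm38.p6) by symbol. Trends were loess fits (span 0.3). The fit on GC content was checked on simulated data with a straight trend and changes well past 2-fold, without genes low in the zygote. The fit on length was not checked in this way. Stretches of 50 bases were matched to the transcripts of all other genes on both strands. The members, roles, lists and alternatives were chosen with earlier results of these data known. All members were named, and of the other genes those past 2-fold with at least 5 TPM and the most abundant of each list. Abhd5, the marker genes and the genes of the closing section were added as checks or once their values had been seen. The tools were matplotlib 3.10.9, statsmodels 0.14.6 (loess), scipy 1.17.1 (correlations), pandas 2.3.3 and numpy 2.4.6, under Python 3.11.15.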

Additional observations from a re-analysis of the deposited data

How the results depend on the processing

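No paired analysis was possible because PB2 and the zygote were represented by 1 library apiece. Counts were taken as kept within 1.5 times and the median within 0.1. At a threshold of 5 TPM 26 members were expressed in PB2. With the GC trend removed 2 members passed 2-fold towards PB2 and 10 towards the zygote, and the median log2 ratio was -0.20. A threshold of 1.5-fold was passed by 14 members towards PB2 and 10 towards the zygote, and one of 4-fold by 0 and 0. Calls over all genes were not counted at these thresholds, so the members' counts there have no share to be set against. With ratios centred on the median of all genes, which shifts each by 0.21, the median was -0.27. That centring moved the share of calls over all genes that lay towards PB2 from 70.0% to 51.8%, and removal of the GC trend moved it to 45.3%. The other 28 results of these kinds stayed within the limits. None of the 12 members past 2-fold turned direction under the 7 alternatives that gave it a value. Plin3, Eci2, Echdc1, Acot9 and Acadl stayed past 2-fold under all 7, Lipe under 4 and the other 6 members under 6. Of these 6, Elovl5 and Acot13 fell short with the length trend removed, and Acaa1b, Acot5, Pnpla2 and Pnpla5 with the GC trend removed. At a pseudocount of 0.01 Lipe had a log2 ratio of 3.57 and Acaa1b one of 4.12, since a smaller pseudocount shrinks low values less. Counting error, largest for the members under a few TPM, cannot be given without depth.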

Other observations

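The subunits of the AMP-activated kinase did not share a direction. The catalytic subunit genes Prkaa1 and Prkaa2 had 4.5 and 3.9 TPM in PB2 against 9.0 and 8.3 TPM in the zygote, log2 ratios of -0.86 and -0.92. The regulatory subunit genes Prkab1, Prkab2 and Prkag1 had log2 ratios of 1.86, 0.92 and 0.78, and Prkag2 stayed under 1 TPM in both libraries. The transcripts of Prkaa1 and Prkaa2 have a GC content of 40.1% and 40.7%, and those of Prkab1, Prkab2 and Prkag1 of 55.0%, 46.8% and 52.8%. The part of GC content was not tested.

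Adig and Retn, genes best known from adipocytes, stood in opposite directions. Adig was listed at 0 in PB2 and had 7.3 TPM in the zygote, and Retn had 10.7 TPM in PB2 against 0.9 TPM in the zygote.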
